A study of Mus musculus with 4 samples.

Results

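The genes described here carry out the synthesis of cholesterol and of fatty acids and its feedback control. The set holds 31 named genes, of which 30 had a probe under their own name (Sc4mol is now named Msmo1), out of 27745 gene names on the array. All 30 passed the filter on dim probes, as did 18314 genes in all, and each of the 30 was well above background on all 4 arrays. Each gene is given by 1 probe, its brightest by mean signal. The remaining gene, Me1, which encodes the cytosolic malic enzyme that supplies NADPH for fatty acid synthesis, had no probe under that name.

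The study compared B-cell lymphoma with normal B cells of the mouse. The splenocyte group held 2 samples of spleen cells carrying B220, a surface antigen of B cells, from C57BL/6N mice. The lymphoma group held 2 independently established cell lines, called line 1 and line 2 here, from dopamine receptor 3 transgenic mice. All 4 samples are labelled female and strain C57BL/6N; the age of the mice, the promoter of the transgene and whether the splenocyte samples came from separate animals are not given in the sources used here. Each sample was hybridised to 1 array, so that the p-values below measure only the spread between these samples. A comparison of fresh cells with established lines also compares cells taken from an animal with cells grown in culture. Only the lines came from mice described as transgenic. The design cannot tell culture or the transgene apart from lymphoma against normal B cells. In such bulk samples, fewer cells of a type and less RNA per cell cannot be told apart either.

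All 4 arrays were on 1 slide. Between 24972 and 27318 probes an array were well above background, no spot of a used probe was saturated, and arrays of 1 group correlated at 0.991 to 0.992 against 0.834 to 0.846 between groups. The 7 B cell markers examined (Ms4a1, Cd79a, Cd79b, Cd22, Pax5, Ptprc and Blnk) were well above background on all 4 arrays, with a summed level of 695 and 894 in the splenocytes and of 428 and 416 in the lines, in units of each array's 75th percentile. Drd3 itself was not well above background in either splenocyte sample and was so in both lines, with log2 values of -6.82, -7.46, -6.32 and -6.46 in splenocyte samples 1 and 2 and lines 1 and 2, at least 1.05-fold higher in the lines (adjusted p = 0.0640, not called). A bound of this kind sets the mean of the brighter group against the lowest signal that an array counted as well above background. A probe that passed the filter only through the brighter group gives no test of the difference.

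Cells make cholesterol from acetyl-CoA by way of mevalonate, farnesyl pyrophosphate, squalene and lanosterol. The genes of this route share a transcription factor, SREBP-2, the product of Srebf2, which is held in the endoplasmic reticulum by SCAP and the INSIG proteins while sterols are plentiful and is carried to the Golgi and cut free when they are scarce. A related factor, SREBP-1, made from Srebf1, acts mainly on fatty acid genes. Activated lymphocytes are known to draw on both routes for membrane growth.

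Promoters were examined because genes controlled by SREBPs often carry, beside the sterol element, a CCAAT box bound by NF-Y or a GC box bound by Sp1. RefSeq promoter windows on GRCm38.p6, from 250 bases before to 50 bases after a gene's start, were matched for 26 of the 31 genes (33 windows). The letters CCAAT, searched on both strands, were found in 21 of these 26 genes (80.8%), against 41.1% of the 27025 genes in the table and 42.4% of the 9046 tested genes that had a window. GGGCGG, the GC box, was found in 22 of 26 (84.6%) against 38.2% of all genes and 63.0% of tested genes. CACGTG, an E-box form, was found in 5 of 26 (19.2%) against 8.09% and 11.1%. TCACNCCAC, a form of the sterol regulatory element, was found in 1 of 26 (3.85%) against 1.44% and 1.40%, and that gene was Hmgcs1, where the match TCACCCCAC begins 137 bases before the start. Motifs were counted independently, so that neighbouring matches may share bases, and a match describes letters only.

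Below are 5 of these promoters, the 250 bases before the start read 5′ to 3′ on the gene's strand, with CCAAT or its reverse complement ATTGG in capitals and, in Hmgcs1, the TCACCCCAC match too. Hmgcs1 (chr13:119690101-119690350, plus strand) is shown for the only sterol element match, Mvk (chr5:114444019-114444268, plus strand) for its 5 CCAAT matches, Cyp51 (chr5:4104698-4104947, minus strand) and Sc4mol (chr8:64733579-64733828, minus strand) as sterol enzymes whose transcripts rose about alike, and Acss2 (chr2:155517793-155518042, plus strand) as a gene whose transcript fell. The numbers of CCAAT matches in the stretches printed are 3 in Hmgcs1, 5 in Mvk, 1 in Cyp51, 3 in Sc4mol and 1 in Acss2.
Hmgcs1: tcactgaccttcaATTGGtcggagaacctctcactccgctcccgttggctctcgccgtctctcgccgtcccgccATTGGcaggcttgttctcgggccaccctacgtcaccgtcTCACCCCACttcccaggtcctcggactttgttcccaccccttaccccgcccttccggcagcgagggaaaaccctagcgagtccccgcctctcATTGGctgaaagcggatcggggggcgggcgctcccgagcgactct
Mvk: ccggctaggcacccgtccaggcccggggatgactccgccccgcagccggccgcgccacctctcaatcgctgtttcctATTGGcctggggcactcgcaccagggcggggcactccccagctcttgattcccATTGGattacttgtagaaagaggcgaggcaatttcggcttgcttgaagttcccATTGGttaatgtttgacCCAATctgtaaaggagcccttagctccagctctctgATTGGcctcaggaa
Cyp51: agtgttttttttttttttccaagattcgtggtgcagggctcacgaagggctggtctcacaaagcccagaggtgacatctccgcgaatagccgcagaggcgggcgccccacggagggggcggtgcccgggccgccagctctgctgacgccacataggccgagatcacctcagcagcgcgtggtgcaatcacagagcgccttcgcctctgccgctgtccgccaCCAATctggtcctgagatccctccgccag
Sc4mol: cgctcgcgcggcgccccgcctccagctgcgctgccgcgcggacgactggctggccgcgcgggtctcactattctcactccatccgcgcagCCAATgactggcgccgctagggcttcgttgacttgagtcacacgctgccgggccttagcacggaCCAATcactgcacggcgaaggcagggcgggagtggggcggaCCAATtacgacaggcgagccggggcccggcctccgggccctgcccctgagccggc
Acss2: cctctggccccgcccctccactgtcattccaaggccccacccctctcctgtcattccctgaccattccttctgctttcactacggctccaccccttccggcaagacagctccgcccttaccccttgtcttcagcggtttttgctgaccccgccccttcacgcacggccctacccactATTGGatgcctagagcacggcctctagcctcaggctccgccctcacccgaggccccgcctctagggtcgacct
The letters CCAAT were present upstream both of genes that rose and of Acss2, which fell.

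Across the set, transcripts were mostly higher in the lymphoma lines. With limma, fitted over all 18314 tested genes and adjusted over them by Benjamini-Hochberg, 18 of 30 (60%) were called higher at an adjusted p under 0.05, 2 of 30 (6.67%) lower and 10 were not called. Over all tested genes 30.6% were called higher and 32.6% lower. Each of the 18 was called and at least 2-fold higher, against 21.5% of all genes. Both lines lay above both splenocyte samples in 25 of 30 genes, against 41.2% of all genes, and below both in 2, against 43.8% of all genes. The remaining 3, Acat2, Ebp and Elovl6, overlapped between the groups. The median difference was 1.65 on the log2 scale (3.15-fold), with a range from -1.23 to 3.90, beside a median of -0.05 over all tested genes. Without line 1 this median was 1.03 and without line 2 it was 2.17. All 18 stayed above 0 whichever single array was left out. Each such fit leaves 1 array in a group and takes its spread from the other group alone. Its calls are therefore no check of the agreement within the smaller group.

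**Figure D1:**
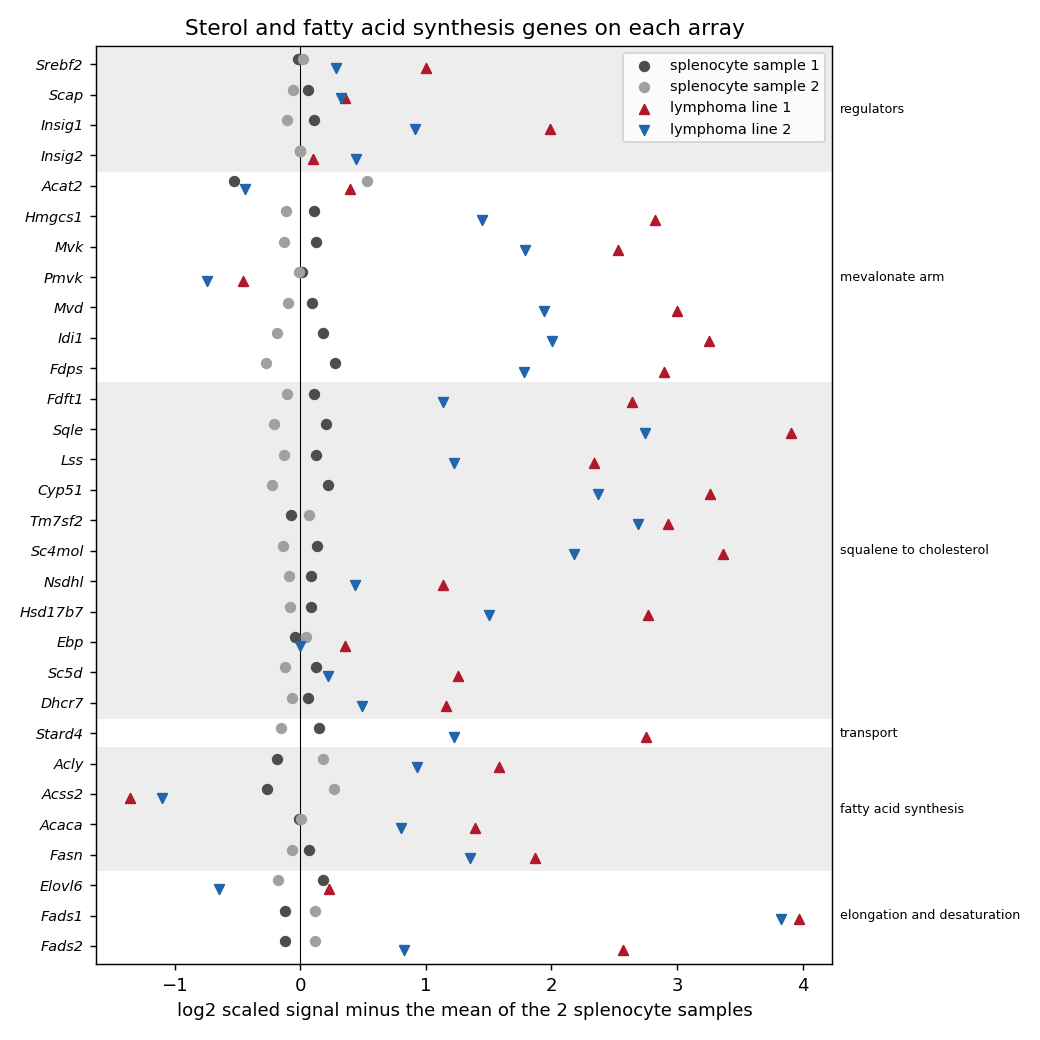
Each gene's log2 scaled signal on each array minus the mean of the 2 splenocyte samples, with genes in rows by role, circles for the splenocyte samples and triangles for the lines. In 25 of 30 genes both triangles lie to the right of both circles, and line 1 lies to the right of line 2 in 28 of 30.

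The regulators had the lowest median difference of the roles, 0.49 over 4 genes. In what follows, a value is the log2 of the processed signal over the array's 75th percentile (0 is that percentile), and values are given for splenocyte samples 1 and 2 and then for lines 1 and 2. Srebf2, which encodes SREBP-2, read 4.97 and 5.01, then 5.99 and 5.27. Both lines were above both splenocyte samples, but line 2 by little: the difference of 0.64 ± 0.28 (SE, 2 arrays a group) was not called (adjusted p = 0.109). Scap, the escort of SREBP-2, read 4.38 and 4.26, then 4.67 and 4.64 (0.34 ± 0.14, adjusted p = 0.0989, not called). Insig1 encodes a retention protein and is itself a target of SREBP-2. It read -3.10 and -3.32, then -1.22 and -2.30, and rose 2.73-fold (1.45 ± 0.40, adjusted p = 0.0328). The groups did not overlap, yet line 1 was 3.97-fold and line 2 1.88-fold above the splenocyte mean. The call was lost without splenocyte sample 1 (adjusted p = 0.0796) or sample 2 (adjusted p = 0.113). Insig2, the second retention protein, read 1.60 in both splenocyte samples, then 1.70 and 2.04 (0.27 ± 0.18, adjusted p = 0.242, not called), and it was 1 of 2 genes higher in line 2 than in line 1.

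In the mevalonate arm, which turns acetyl-CoA into farnesyl pyrophosphate, 5 of 7 genes rose, 1 fell and 1 was not called (median 2.16). Hmgcs1, HMG-CoA synthase, joins acetoacetyl-CoA and acetyl-CoA. It read 2.79 and 2.56, then 5.497 and 4.12, a rise of 4.39-fold (adjusted p = 0.0200). Line 1 was 7.07-fold and line 2 2.73-fold above the splenocyte mean, and the call was lost without splenocyte sample 1 (adjusted p = 0.0555) or 2 (adjusted p = 0.0731). Mvk, mevalonate kinase, read -1.66 and -1.91, then 0.74 and -0.00, which is 4.46-fold higher in the lines (adjusted p = 0.00451). Mvd, the decarboxylase that forms isopentenyl pyrophosphate, read -0.05 and -0.24, then 2.85 and 1.79 (5.53-fold, adjusted p = 0.00658). For both enzymes the lines stood well apart from the splenocytes, with line 1 the higher. Idi1, the isomerase that follows, read 2.28 and 1.91, then 5.35 and 4.10, a difference of 2.63 ± 0.46 or 6.18-fold (adjusted p = 0.00902). Its line 1 value was 9.54-fold and its line 2 value 4.005-fold above the splenocyte mean. Fdps, farnesyl pyrophosphate synthase, read 1.32 and 0.77, then 3.95 and 2.83 (5.06-fold, adjusted p = 0.0112). Against these 5, Pmvk, phosphomevalonate kinase, which acts between Mvk and Mvd, fell.

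Pmvk read 3.76 and 3.73, then 3.29 and 3.00, so that both lines were below both splenocyte samples, 1.51-fold on average (-0.60 ± 0.17, adjusted p = 0.0351). The call was lost with the replicate number as a block (adjusted p = 0.0572) and with arrays centred on their median (adjusted p = 0.470). It was also lost when dim probes were kept (adjusted p = 0.0922). Without splenocyte sample 1, splenocyte sample 2 or line 2 the difference was -0.58, -0.61 and -0.45, and the call was lost too. Acat2, cytosolic acetoacetyl-CoA thiolase at the head of the route, read -2.80 and -1.75, then -1.88 and -2.72. The splenocyte samples differed by 1.06 and spanned almost the same range as the lines, and the difference was -0.02 ± 0.48 (adjusted p = 0.972). The mouse genome holds close copies of Acat2, and how far its probe tells them apart was not tested.

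From squalene to cholesterol, 7 of 11 genes rose, none fell and 4 were not called (median 1.89). The first enzymes of this stretch were among those that rose. Fdft1, squalene synthase, read 0.08 and -0.13, then 2.61 and 1.11 (3.71-fold, adjusted p = 0.0357). Line 1 was 6.24-fold and line 2 2.20-fold above the splenocyte mean, and the call was lost without splenocyte sample 1 (adjusted p = 0.0859) or 2 (adjusted p = 0.113). Sqle, squalene epoxidase, a rate-controlling oxygenase (probe at mm8 chr15:59160510-59160569, plus strand), read 1.17 and 0.75, then 4.87 and 3.70. This was the largest rise among the sterol enzymes of the set, 3.32 ± 0.44 on the log2 scale (10.01-fold, adjusted p = 0.00400), and both lines shared it, at 15.0-fold in line 1 and 6.69-fold in line 2. Lss, lanosterol synthase, read -0.49 and -0.75, then 1.72 and 0.61 (3.44-fold, adjusted p = 0.0202; adjusted p = 0.0538 without splenocyte sample 1 and 0.0771 without sample 2).

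Of the steps after lanosterol, Cyp51, Sc4mol and Tm7sf2 rose by 6.83-fold to 7.04-fold. Cyp51, lanosterol demethylase, read -0.41 and -0.85, then 2.63 and 1.74 (7.04-fold, adjusted p = 0.00376). Sc4mol, the methylsterol oxidase, read 3.11 and 2.84, then 6.34 and 5.15 (6.83-fold, adjusted p = 0.00642), 10.3-fold in line 1 and 4.53-fold in line 2. Tm7sf2, a sterol reductase acting at the delta-14 bond, read -1.32 and -1.18, then 1.68 and 1.44. Its lines were nearly equal, at 7.61-fold and 6.44-fold above the splenocyte mean, and it had the smallest adjusted p of the sterol enzymes of the set (6.998-fold, 2.81 ± 0.17, adjusted p = 0.000574). Hsd17b7, which reduces the 3-keto group after demethylation, read -0.31 and -0.48, then 2.37 and 1.102 (4.39-fold, adjusted p = 0.0159). Line 1 was 6.80-fold and line 2 2.83-fold above the splenocyte mean, and without splenocyte sample 2 the adjusted p was 0.0605.

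The 4 genes of this stretch that were not called include the late steps. Nsdhl, the decarboxylase that works with Sc4mol, read -1.11 and -1.28, then -0.06 and -0.76 (0.78 ± 0.28, adjusted p = 0.0677). Sc5d, a desaturase, read 2.18 and 1.93, then 3.32 and 2.28 (0.74 ± 0.39, adjusted p = 0.162). Dhcr7, the reductase that makes cholesterol from 7-dehydrocholesterol, read 2.21 and 2.08, then 3.31 and 2.63 (0.83 ± 0.27, adjusted p = 0.0533). In all 3, both lines lay above both splenocyte samples, with line 2 close to them. Ebp, the sterol isomerase, read 4.11 and 4.20, then 4.51 and 4.16, where line 2 lay between the splenocyte samples (0.18 ± 0.18, adjusted p = 0.437). By their brightest probes, these 4 had differences between 0.18 and 0.83, below the 1.78 of Lss, the lowest of the 7 that rose. Another probe of Sc5d gave 2.38 and another of Dhcr7 gave 1.66, both called over all tested probes. The other probes of Nsdhl gave -0.31, 0.89 and 0.96. Differences between genes were not tested.

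Stard4 encodes a carrier that moves cholesterol between membranes. It read 0.44 and 0.14, then 3.04 and 1.51, a rise of 3.97-fold (1.99 ± 0.55, adjusted p = 0.0334). Line 1 was 6.75-fold and line 2 2.33-fold above the splenocyte mean, and the call was lost without splenocyte sample 1 (adjusted p = 0.0771) or sample 2 (adjusted p = 0.110).

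**Figure D2:**
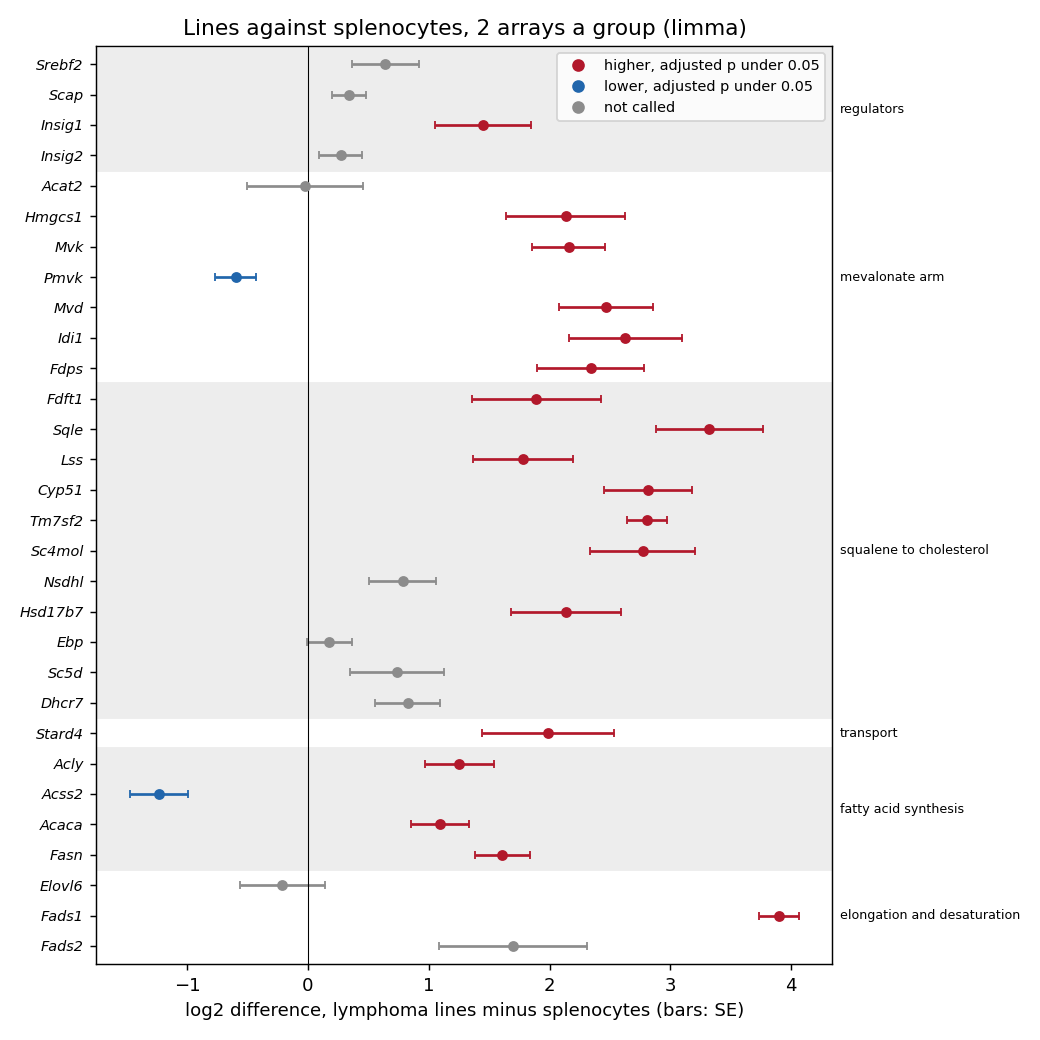
Difference of the 2 lymphoma lines minus the 2 splenocyte samples on the log2 scale, with bars for the SE of the limma fit and colour for the call. The 18 genes called higher lie from 1.097 to 3.90, and Pmvk and Acss2 are called lower.

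Of the 4 measured genes of fatty acid synthesis, 3 rose and 1 fell (median 1.18). Acly, ATP citrate lyase, makes cytosolic acetyl-CoA from citrate. It read -0.33 and 0.04, then 1.43 and 0.78 (2.38-fold, adjusted p = 0.0196; 0.0814 without splenocyte sample 1). Acaca, acetyl-CoA carboxylase, read -2.12 and -2.10, then -0.73 and -1.31 (2.14-fold, adjusted p = 0.0171; 0.0684 without splenocyte sample 1 and 0.0682 without sample 2). Fasn, fatty acid synthase, read 4.84 and 4.71, then 6.65 and 6.12 (3.05-fold, 1.61 ± 0.23, adjusted p = 0.00473). The lines stood apart from the splenocytes in all 3, most clearly for Fasn. Acss2 makes acetyl-CoA from acetate, the alternative to Acly. It read -1.30 and -0.77, then -2.39 and -2.14, so that both lines were below both splenocyte samples, 2.35-fold on average (-1.23 ± 0.24, adjusted p = 0.0124; 0.0543 without line 1). Acly and Acss2, the sources of cytosolic acetyl-CoA from citrate and from acetate, were called in opposite directions.

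Me1 can be followed only outside the rule, through a probe named Mod1, its older symbol, whose RefSeq accession is listed for Me1. That probe was not well above background in either splenocyte sample and was so in both lines. It read -7.96 and -8.14, then -4.17 and -5.28, at least 3.78-fold higher in the lines. The probe passed the filter only through the lines, so that its call is no test of a rise. It is not counted among the 30.

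Elongation and desaturation gave the largest rise of the set, and the other 2 of its 3 genes were not called. Fads1, the delta-5 desaturase of polyunsaturated fatty acids (probe at mm8 chr19:10263085-10263144, plus strand), read -2.81 and -2.57, then 1.28 and 1.14. It rose 14.9-fold (3.90 ± 0.16, adjusted p = 0.000283), by 15.7-fold in line 1 and 14.2-fold in line 2. Fads2, the delta-6 desaturase that acts before it and whose gene neighbours Fads1, read -3.86 and -3.62, then -1.17 and -2.92. Both lines were above both splenocyte samples, but line 1 was 5.95-fold and line 2 only 1.77-fold above their mean, and the difference of 1.70 ± 0.61 was not called (adjusted p = 0.0696). Elovl6, which lengthens saturated fatty acids, read -1.60 and -1.96, then -1.55 and -2.43, with line 1 above both splenocyte samples and line 2 below both (-0.21 ± 0.35, adjusted p = 0.629).

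Line 1 and line 2 can be compared by size only, since each was on 1 array and the difference has no replicate check. Line 1 was higher in 28 of 30 genes, the exceptions being Insig2 (-0.34) and Acss2 (-0.25), against 50.1% of all tested genes. The median of line 1 minus line 2 was 0.86 on the log2 scale (1.82-fold), beside 0.00 over all tested genes. A difference of at least 2-fold was seen in 13 genes (43.3%), against 6.59% of all tested genes in either direction. Each of the 13 was higher in line 1, against 1.62% of all tested genes that were at least 2-fold higher in line 1. With quantile normalization line 1 was higher in 27 of 30, and with normexp background correction in 28. The line difference was larger than the difference between the splenocyte samples in 26 of 30 genes, against 58.7% of all genes. Splenocyte sample 1 was in turn above sample 2 in 21 of 30 genes (70.0%), against 48.8% of all genes, with a median of 0.17.

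**Figure D3:**
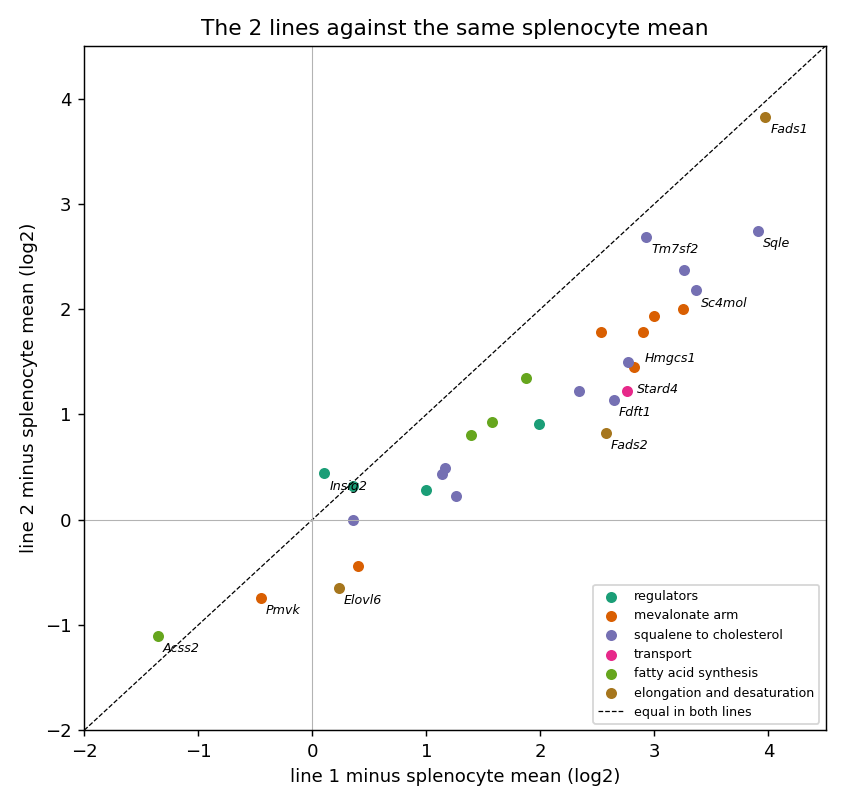
Line 1 minus the splenocyte mean (x axis) against line 2 minus the same mean (y axis), both log2, 1 point per gene coloured by role. Both axes share the splenocyte samples; 28 of 30 points lie below the dashed line of equal values, with Fads1 and Tm7sf2 close to it and Fads2, Stard4 and Fdft1 far from it.

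The genes furthest apart between the lines came from several roles. Fads2 was 3.35-fold, Stard4 2.89-fold, Fdft1 2.83-fold, Hmgcs1 2.59-fold, Hsd17b7 2.40-fold and Idi1 2.38-fold higher in line 1 than in line 2. Fads1, at 1.103-fold, and Tm7sf2, at 1.18-fold, were nearly equal in the lines although they rose 14.9-fold and 6.998-fold over the splenocytes. By role, the median of line 1 minus line 2 was 0.37 for the regulators, 1.06 for the mevalonate arm, 1.04 from squalene to cholesterol, 0.55 for fatty acid synthesis and 0.88 for elongation and desaturation. All 18 genes called higher against the splenocytes were also higher in line 1 than in line 2, by 0.14 to 1.53. Their rise over the splenocyte mean ran from 2.62-fold to 15.7-fold in line 1 and from 1.75-fold to 14.2-fold in line 2. The median spread within a group (SD) was 0.61 for these 30 genes in the lines and 0.16 in the splenocytes, beside 0.16 and 0.12 over all tested genes.

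**Figure D4:**
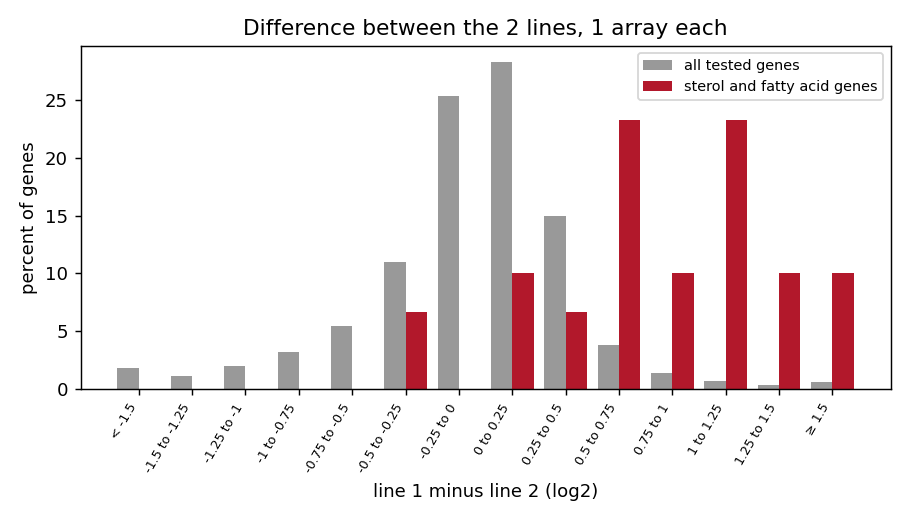
Share of genes (percent, y axis) by line 1 minus line 2 on the log2 scale (x axis), for all 18314 tested genes in grey and the 30 sterol and fatty acid genes in red. The grey bars centre on a median of 0.00 and the red bars on 0.86.

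Other probes of the same genes mostly moved with the chosen ones. Of 29 other tested probes, 23 had the sign of the chosen probe, 6 the opposite sign, and 26 were higher in line 1 than in line 2. The opposite probes belong to 5 genes. Hmgcs1 had 1 other probe at 2.30 and 1 at -1.12. The latter, annotated to a different transcript record, was called lower over all tested probes (adjusted p = 0.00326). Its mean over the 4 arrays was -4.96, beside 3.74 for the chosen probe. Acaca had other probes at -0.50 and -0.77, both called lower over all tested probes (adjusted p = 0.0481 and 0.0298). Its rise thus rests on the brightest of 3 tested probes, and the other probes went against it. Those were much dimmer, with means over the 4 arrays of -5.29 and -5.72 beside -1.57 for the chosen probe. Acss2 had other probes at -0.78 and 1.42. The last was well above background on only 2 arrays and read -8.04 and -7.54 in the splenocytes, then -5.96 and -6.78 in the lines. At values this low, its call over all tested probes gives no test against the fall. Srebf2 had other probes at -0.26, 0.68 and 1.27, and Nsdhl at -0.31, 0.89 and 0.96. In Fdps and Stard4 the sign held but the size did not: the other probe of Fdps gave 0.27, and those of Stard4 gave 0.59 and 0.32. Conversely, 4 genes that were not called had another probe that passed over all tested probes, with a larger difference than the chosen one: Sc5d (2.38, adjusted p = 0.00229), Dhcr7 (1.66, adjusted p = 0.00864), Srebf2 (1.27, adjusted p = 0.0163) and Nsdhl (0.96, adjusted p = 0.0471). Of these, the probes of Sc5d and Srebf2 are annotated to a different transcript record from the chosen probe. That Srebf2 probe was dim, with a mean over the 4 arrays of -4.19 beside 5.31 for the chosen one. The array places the Idi1 probes on mm8 chromosome 2, whereas the RefSeq table on GRCm38.p6 has Idi1 on chromosome 13.

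**Figure D5:**
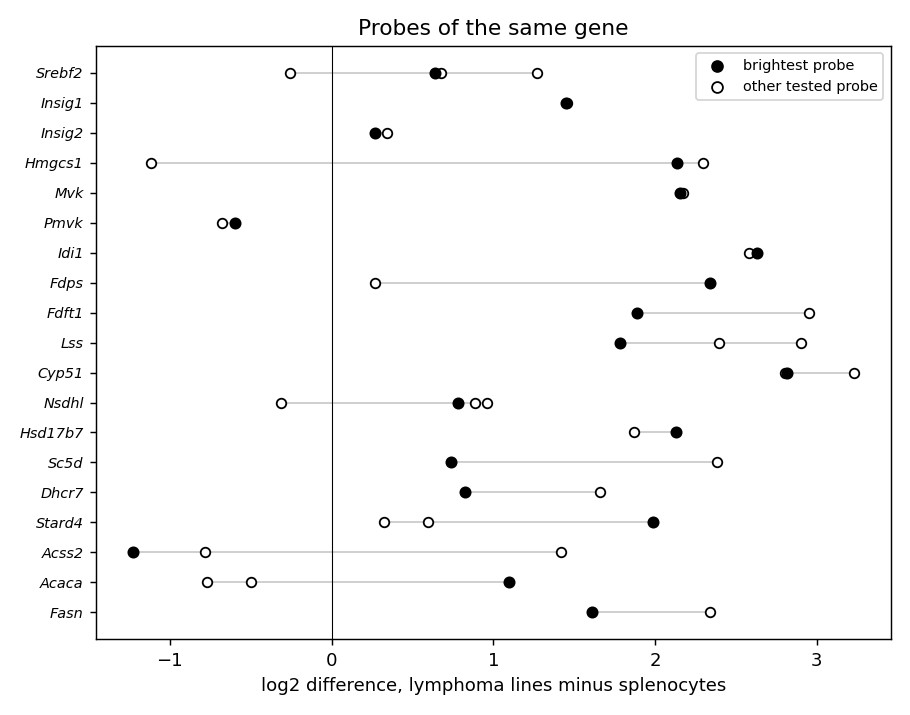
Lymphoma lines minus splenocytes on the log2 scale for each tested probe of the 19 genes with several, with the brightest probe filled and the others open. In 14 of the 19 all probes lie on the same side of 0; the exceptions are Srebf2, Hmgcs1, Nsdhl, Acss2 and Acaca.

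Other genes of the pathway, from a list that leaves out the 31, moved in both directions. Of 33 tested, 12 rose, 6 fell and 15 were not called, with a median of 0.35, and line 1 was above line 2 in 22 of 33, beside the 30.6% called higher, 32.6% called lower and 50.1% with line 1 above line 2 over all tested genes. Srebf1 read 3.97 and 4.14, then 3.46 and 2.77, so that it was 1.92-fold lower in the lines (adjusted p = 0.0397). Acacb, the mitochondrial acetyl-CoA carboxylase, read -3.27 and -2.96, then -0.57 and -0.98 (5.07-fold higher, adjusted p = 0.00166). Tmem97, a membrane protein that binds sterols, read -0.93 and -1.16, then 1.30 and 0.71 (4.14-fold higher, adjusted p = 0.00335). Scd2, a stearoyl-CoA desaturase, read 3.60 and 3.58, then 5.98 and 4.66 (3.32-fold higher, adjusted p = 0.0321), which is 5.25-fold above the splenocyte mean in line 1 and 2.1-fold in line 2. In these 3 genes both lines lay above both splenocyte samples, with line 1 the higher. The largest falls of the list were in Soat1, which esterifies cholesterol for storage (5.08-fold lower, adjusted p = 0.000634), Lpin1, a phosphatidate phosphatase (3.18-fold lower, adjusted p = 0.00140), and Ggps1, which draws farnesyl pyrophosphate toward protein prenylation (2.46-fold lower, adjusted p = 0.00343).

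Some markers of other cells and of cell division also differed between the groups. Over all tested genes, 30.6% were called higher and 32.6% lower. Line 1 was above line 2 in 50.1% of them, and splenocyte sample 1 above sample 2 in 48.8%. All 6 genes of dividing cells (Mki67, Top2a, Ccnb1, Cdk1, Bub1 and Plk1) were called higher in the lines (median 3.18), with a summed level of 28.5 and 19.6 in the splenocytes and of 131 and 111 in the lines. Line 1 was above line 2 in all 6, by 0.13 to 0.50. Splenocyte sample 1 was above sample 2 in all 6, by 0.21 to 0.997. For the 30 genes of the set, the median difference was 0.86 between the lines and 0.17 between the splenocyte samples. Of the 8 myeloid markers 6 were lower in the lines, with sums of 15.96 and 10.8 against 2.22 and 2.41. Of the 7 B cell markers 5 were lower and none higher (median -1.52). All 4 tested NK cell markers were lower, with sums over all 5 listed of 1.19 and 1.14 against 0.063 and 0.048. So were 2 of 4 tested erythroid markers, with sums over all 5 listed of 5.66 and 5.74 against 2.36 and 0.904. Of 7 T cell markers 2 were higher and 3 lower (7.71 and 5.64 against 11.7 and 13.4), of 5 dendritic cell markers 3 higher and 1 lower (1.27 and 1.28 against 0.949 and 0.998), and of 5 stromal markers 2 higher and 2 lower (2.09 and 1.86 against 0.486 and 0.467). The part of cell division and of other cell types in the differences described here was not tested.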

How the data were processed

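Total RNA of the 4 samples was labelled with Cy3 and hybridised to 1-colour Agilent mouse arrays with 43379 non-control spots. Per the file headers, Feature Extraction 9.5.1.1 (9.5 per the submitters' processing notes) gave a processed signal, an intensity corrected for background and not normalized between arrays, and 0 or 1 flags, with array annotation on mm8. The deposited value table holds the same intensity times 1 factor per array (1, 2.10, 0.961 and 0.820, as read from the values), and its array medians are 58.7, 57.5, 41.6 and 46.1.

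From these, log2 of the processed signal minus log2 of the array's 75th percentile (1078, 514, 1122 and 1315) was computed. Spots flagged as outliers or non-uniform on any array were left out, and the remaining spots of a probe were averaged. A probe was tested where 2 or more of the 4 arrays flagged it as well above background. A gene took its brightest tested probe, the same by mean unscaled signal for all 30. Groups were compared with limma 3.58.1 in R 4.3.3 (lmFit and eBayes, two-sided), adjusted by Benjamini-Hochberg over 18314 genes and called at 0.05, and the steps were tested on simulated data. Every gene of the set is named, and of the related list Srebf1 and the 3 largest called differences each way; some genes of the lists are not reported here. The genes, lists and tests were chosen with earlier results of these data known. Replicate numbers did not pair the samples (correlation of deviations 0.0136). Slide and scan were shared by all arrays, so no batch could be fitted. The number of arrays limits the precision.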

Additional observations from a re-analysis of the deposited data

Results flagged for a closer look

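Elovl6 was the gene whose lines lay on opposite sides of both splenocyte samples: line 1 was 0.23 above the splenocyte mean and line 2 was 0.65 below it (-0.65) on the log2 scale. With 1 array a line, this difference was not tested. Groups of 2 samples are too small to look for single outlying samples.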

How the results depend on the processing

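The 18 genes called higher stayed above 0 under all 5 other scalings and without any 1 array, and 17 kept their call under every scaling; 10 kept it without any 1 array. The number called higher was 18 with quantile normalization, normexp, the deposited table, the percentile over bright probes, the mean of all tested probes and stricter flags, 24 after median centring, 15 when dim probes were kept, 21 with probes above background on all 4 arrays, 21 with a trended robust fit, 17 with the second brightest probe (an alternative chosen after seeing the data) and 20 with the replicate block, where Nsdhl and Dhcr7 were gained (adjusted p = 0.0459 and 0.0425). Leaving out 1 array gave 11 to 23. Of the 2 genes called lower, 1 was called after median centring, when dim probes were kept, with the mean of probes, with the second brightest probe, with the replicate block, and without any 1 array (1 to 1). The median difference was 2.06 centred on the median and 1.38 with the mean of probes, and 1.03 to 2.17 without 1 array. The median of line 1 minus line 2 ran from 0.74 to 1.009. Signs turned for Acat2 (0.18 with quantile normalization, 0.38 centred on the median, and -0.55 to 0.51 without 1 array, being positive without splenocyte sample 2 or line 2), Ebp (-0.055 with quantile normalization), Elovl6 (0.20 centred on the median, and -0.65 to 0.23 without 1 array, being positive without line 2), Acaca (-0.058 with the mean of probes, -0.50 with the second brightest) and Srebf2 (-0.26 with the second brightest). Single calls were lost for Insig1 with normexp (adjusted p = 0.0543) or no filter (0.0675), Fdft1 with no filter (0.0704), Stard4 with no filter (0.0665), the mean of probes (0.141) or the second probe (0.303), Fdps with the second probe (0.196), and Acss2 with the mean of probes (0.466) or the second probe (0.0754). Pmvk lost its call with no filter as well (0.0922). Calls were also gained in settings other than the block. Dhcr7 was gained with normexp, the mean of probes and the second probe. Dhcr7, Nsdhl and Fads2 were gained after median centring, with probes above background on all 4 arrays and with the trended robust fit. Sc5d was gained with the mean of probes and the second probe, and Srebf2, Scap and Insig2 after median centring. Over all genes, 48.4% of calls were higher, against 63.2% centred on the median, which moved the median of all genes by 0.41; quantile normalization moved it by 0.14, normexp by -0.26, the percentile over bright probes by -0.13 and no filter by -0.34. The cause of these changes was not tested.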
